A study of Mus musculus with 16 samples.

Results

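The aquaporin family was examined in short-read RNA-Seq of 8 mouse tissues from fed and fasting animals. The members were the 10 genes Aqp1 to Aqp9 and Aqp11, taken by gene symbol from a table of 55385 annotated genes, of which 37084 had at least 1 count. All 10 members had counts. The fed group was male C57BL/6 mice with free access to chow and water, and the fasting group was male C57BL/6 mice that went without food for 24 h. Mice arrived at 12 weeks of age and were acclimatised for at least 10 to 14 days. Each group held 3 mice, and the same tissue of these 3 mice was pooled in equal amounts into 1 library, which gave 16 libraries from muscle, liver, white adipose tissue, brown adipose tissue, heart, spleen, kidney and lung. There were thus no replicate libraries. A test within a tissue sets 1 fasting library against 1 fed library and cannot speak for the conditions, and all tissues share 2 pools of mice.

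Aquaporins are membrane channels that assemble as tetramers, each subunit holding its own pore. The water-selective group (here Aqp1, Aqp2, Aqp4, Aqp5, Aqp6 and Aqp8) passes water along osmotic gradients, although Aqp6 and Aqp8 also pass other small solutes. The aquaglyceroporins (Aqp3, Aqp7 and Aqp9) pass glycerol as well, and Aqp7 and Aqp9 are known for glycerol release from fat and glycerol uptake by the liver. Aqp11 belongs to a distant, intracellular branch. In the kidney, Aqp1 serves the proximal tubule and thin descending limb, and Aqp2, the channel that vasopressin moves to the apical membrane, serves the collecting duct.

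Library totals ran from 14245178 to 36069968 counts, so that 3 counts, the limit that a count of 0 allows, were worth 0.0832 to 0.211 counts per 1000000 counts of the library (CPM). Defining markers of the labelled tissue were present in 7 of the 8 tissues, among them Myh4 in muscle, Alb in liver, Cfd and Fabp4 in white adipose tissue, Ucp1 in brown adipose tissue, Myh6 in heart, Kap in kidney and Scgb1a1 in lung. No list of cells that define the spleen was among those checked. Erythroid and neutrophil genes were taken as native to spleen and so could not count as foreign there. In 6 tissues, however, at least 4 in 5 genes of a marker list of a cell type foreign to the tissue were called, all in 1 direction, by the test of fasting against fed. In the fasting white adipose library, 18 genes of multiciliated cells summed to 862 CPM, against 18.8 CPM in the fed library, with 17 of 18 called up. The bile duct list, which holds general duct epithelial genes, had 6 of 7 called up in the same pair. The other cases were fast muscle fibre genes in brown adipose tissue, pancreatic acinar genes in spleen and liver, cardiomyocyte genes in lung and hepatocyte genes in heart. Their values are given with the aquaporin results of these libraries. In bulk tissue, fewer cells of a type and less RNA per cell cannot be told apart.

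In the annotation of the counts (GRCm38), the members lie on 6 chromosomes, and 5 of them sit in clusters. Aqp2 (ENSMUSG00000023013.5, chr15:99579055-99584547), Aqp5 (ENSMUSG00000044217.17, chr15:99590782-99594829) and Aqp6 (ENSMUSG00000043144.6, chr15:99601400-99605477) follow each other on the plus strand, with 6234 and 6570 bases between them. Aqp7 (ENSMUSG00000028427.13, chr4:41033074-41048139) and Aqp3 (ENSMUSG00000028435.8, chr4:41092722-41098183), both glycerol channels, are neighbours in the family on the minus strand, 44582 bases apart. Aqp8 (ENSMUSG00000030762.11, chr7:123462291-123468004, plus strand) and Aqp11 (ENSMUSG00000042797.9, chr7:97724006-97738289, minus strand) share a chromosome but lie 25724001 bases apart. Aqp1 (ENSMUSG00000004655.5) occupies chr6:55336432-55348555 on the plus strand. Counts were taken over annotated exons of the whole gene, so the untranslated ends and all isoforms of a member enter a single value.

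For 9 of the members, RefSeq start sites gave 11 promoter windows on GRCm38.p6. Each window held the 250 bases before the start site without the last 5 and was searched on both strands for 7 motifs. The promoters of Aqp2 and Aqp3 are shown because over 95% of the level of both genes lay in kidney, and the more upstream promoter of Aqp7 because it is the glycerol channel of the fat depots. Capitals mark every match to a searched motif.
Aqp2 promoter, chr15:99578806-99579050, plus strand: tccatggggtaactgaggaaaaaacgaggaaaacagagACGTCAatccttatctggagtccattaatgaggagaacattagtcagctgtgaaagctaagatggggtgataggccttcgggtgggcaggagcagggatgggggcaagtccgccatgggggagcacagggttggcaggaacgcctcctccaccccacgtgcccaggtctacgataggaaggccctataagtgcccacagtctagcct
Aqp3 promoter, chr4:41098189-41098433, minus strand: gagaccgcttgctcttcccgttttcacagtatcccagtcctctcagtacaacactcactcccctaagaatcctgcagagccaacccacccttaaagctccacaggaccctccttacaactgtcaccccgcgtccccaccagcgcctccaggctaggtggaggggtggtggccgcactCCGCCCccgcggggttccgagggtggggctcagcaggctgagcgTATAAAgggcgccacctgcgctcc
Aqp7 promoter, chr4:41048142-41048386, minus strand: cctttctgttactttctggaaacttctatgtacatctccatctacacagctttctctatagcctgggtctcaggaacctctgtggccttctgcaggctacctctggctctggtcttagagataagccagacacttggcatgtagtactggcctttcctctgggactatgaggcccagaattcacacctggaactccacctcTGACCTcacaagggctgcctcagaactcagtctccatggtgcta

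The Aqp2 window held ACGTCA, the last 6 letters of the cyclic AMP response element, at position -212, and it was the only member window that did. Cyclic AMP is the second messenger of vasopressin in principal cells. Over all 32851 promoter windows, 6.25% held ACGTCA on either strand. The Aqp3 window held TATAAA, the TATA box, at position -29 (12.2% of all windows) and the GC box GGGCGG, read on the reverse strand, at position -73 (32.1% of all windows). The Aqp7 window held AGGTCA, the nuclear receptor site that peroxisome proliferator-activated receptors also read, on the reverse strand at position -49 (13.8% of all windows), and its other window and that of Aqp11 held it too. The windows of Aqp1 and Aqp5 held GGGCGG. No member window held CCAAT (33.5% of all windows), the forkhead site GTAAACA (3.11%) or the HNF1 site GTTAAT (6.34%). Positions give the first base of a match, counted back from the start site. These are matches of letters in a short window and not sites of binding.

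To describe where the members were expressed, the fed and the fasting library of each tissue were averaged, and neighbouring tissues were called separate only where their libraries did not overlap. The tissue terms were significant for 10 of 10 members in an edgeR quasi-likelihood fit of all 16 libraries (adjusted p under the threshold of 0.05), but 93.7% of the 23580 genes fitted passed the same test. Aqp2, Aqp3 and Aqp6 were kidney genes in these libraries, with 98.2%, 95.1% and 98.8% of their summed tissue means in kidney. Aqp5 was a lung gene (98.2%), and Aqp8 and Aqp9 were liver genes (94.7% and 95.8%). Aqp1, Aqp4, Aqp7 and Aqp11 were spread over more tissues, with 29.1%, 45.9%, 44.5% and 48.95% in the highest.

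**Figure D1:**
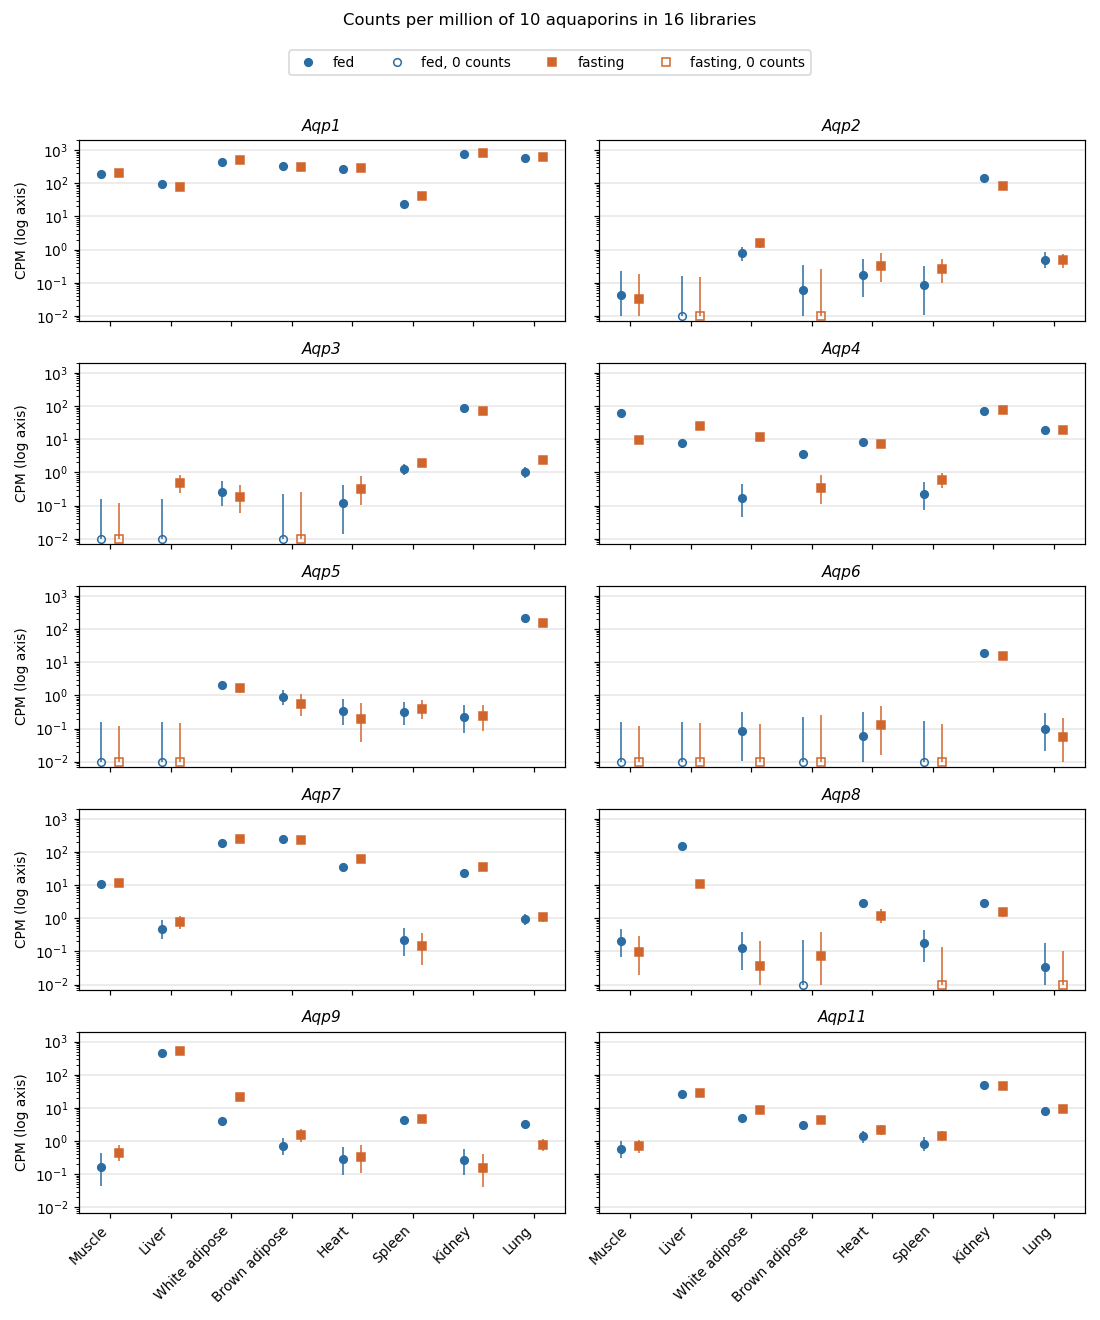
CPM (log axis) of each of the 10 members in the fed (circles) and fasting (squares) library of 8 tissues, with vertical lines for exact Poisson 95% intervals, which cover counting error only, and open symbols at the foot for libraries with 0 counts. Aqp1 was above 20 CPM in all 16 libraries, whereas Aqp2, Aqp3 and Aqp6 exceeded 10 CPM in the 2 kidney libraries alone.

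Aqp1, the water channel of capillary endothelium, red cells and the proximal tubule, was present in all 16 libraries. It was highest in kidney, with 773 CPM in the fed library and 839.9 CPM in the fasting one, followed by lung (579 and 599 CPM), white adipose tissue (426 and 503.5 CPM), brown adipose tissue (326 and 306.5 CPM), heart (274 and 288 CPM), muscle (186 and 203 CPM), liver (93.4 and 76.6 CPM) and spleen (23.0 and 40.6 CPM). No neighbours in this order overlapped by CPM. On TMM or DESeq2 sizes, which set tissues of different RNA make-up against each other in another way, kidney stayed highest and liver and spleen lowest, but muscle moved up to the third place and overlapped white adipose tissue, and heart overlapped brown adipose tissue. On DESeq2 sizes all neighbours from lung to brown adipose tissue overlapped. By CPM per kilobase of gene, the scale on which members can be compared with each other, Aqp1 was the leading member in 14 of 16 libraries, and Aqp9 led in both liver libraries.

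The levels of the kidney members are given in CPM, which is not a scale for ranking members. Aqp2 reached 147 CPM in the fed kidney and 80.9 CPM in the fasting one, Aqp3, the basolateral exit channel of the same principal cells, 85.5 and 72.2 CPM, and Aqp6, a vesicle channel of intercalated cells, 18.4 and 15.8 CPM. Aqp4, the basolateral partner of Aqp3, stood at 72.0 and 75.5 CPM and Aqp11 at 50.2 and 45.8 CPM. Per kilobase of gene, the fed kidney had 103.9 CPM for Aqp2, 46.7 for Aqp3, 11.55 for Aqp4, 7.59 for Aqp6 and 5.33 for Aqp11. The fasting kidney had the same order. Outside the kidney, Aqp2 was next highest in white adipose tissue at 0.773 and 1.57 CPM. Aqp6 had at most 3 counts in every library of the other 7 tissues, which is the limit that a count of 0 allows.

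Aqp5, the apical channel of alveolar and secretory epithelia, gave 218 CPM in fed lung and 151 CPM in fasting lung. Its next tissue, white adipose tissue, had 2.06 and 1.64 CPM, and it had 0 counts in muscle and liver. In liver, Aqp9 gave 442 and 517 CPM, Aqp8 151 and 11.1 CPM and Aqp11 26.0 and 28.4 CPM. Aqp8 was the only member in which a tissue accounted for most of the level and the fed and fasting libraries of that tissue differed more than 10-fold.

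Aqp7, the adipocyte glycerol channel, was highest in both adipose tissues. Brown adipose tissue had 253 and 235 CPM and white adipose tissue 180 and 248 CPM, and these libraries overlapped. On TMM sizes they did not, at 240.5 and 226.9 in brown and 140.3 and 179.5 in white adipose tissue. Heart (35.0 and 60.4 CPM) and kidney (23.5 and 35.2 CPM) came next, overlapping by CPM but not on TMM or DESeq2 sizes, followed by muscle (10.7 and 11.8 CPM), with lung, liver and spleen at or below 1.05 CPM. On TMM or DESeq2 sizes kidney overlapped muscle instead (21.8 and 34.35 against 19.05 and 22.04 on TMM sizes). Aqp4 was the member whose tissue order was least settled: kidney stood clear by CPM, although on TMM sizes muscle (110.9 and 18.04) overlapped kidney (66.7 and 73.7), and all 6 of the following neighbours by CPM, from muscle (62.4 and 9.63 CPM) and lung (18.5 and 18.7 CPM) down to spleen, overlapped.

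**Figure D2:**
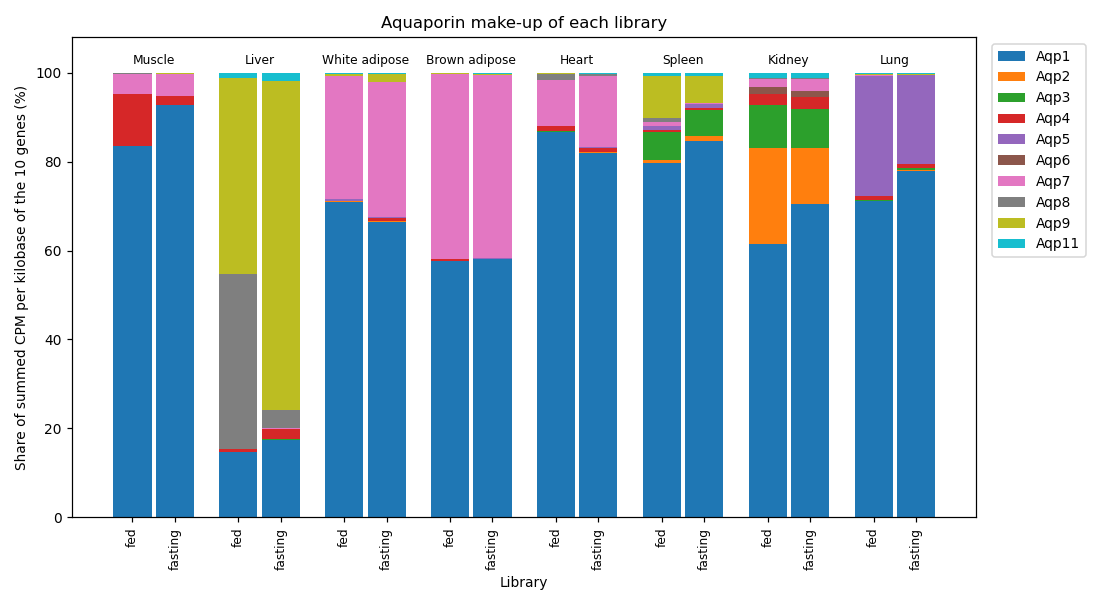
Share of each member in the summed CPM per kilobase of the 10 genes (%), 1 bar per library, fed beside fasting. Aqp1 fills most of each bar outside the liver, and the grey Aqp8 segment of the liver shrinks from 39.5% in the fed to 4.15% in the fasting library.

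Per length, the make-up of the family was set out for each library. In liver the share of Aqp8 was 39.5% in the fed library and 4.15% in the fasting one, while that of Aqp9 was 44.1% and 74.1%. In kidney the share of Aqp2 was 21.7% and 12.6%, in lung that of Aqp5 was 27.0% and 19.9%, in muscle that of Aqp4 was 11.8% and 1.86%, and in heart that of Aqp7 was 10.3% and 15.97%. In brown adipose tissue the shares were close, with Aqp1 at 57.7% and 58.1% and Aqp7 at 41.6% and 41.3%. These shares are descriptions of single libraries and were not tested.

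To compare fasting with fed, each gene was tested in each tissue with Fisher's exact test (two-sided) on the counts of the 2 libraries and was called where the log2 fold change exceeded 0.5 in size at an unadjusted p under 0.01. Of 80 member and tissue pairs, 71 had a count in either library, 63 had more than 3 counts in a library and 44 had a mean of at least 1 CPM. The rule called 17 pairs, 9 up and 8 down, which is 23.9% of the pairs with a count against 11.1% over all gene and tissue pairs (4.99% up and 6.15% down). Among pairs at a mean of 1 CPM or more it called 16 of 44 (36.4%), against 17.5% of all such pairs. The members were not chosen at random, and higher counts make a call easier. Aqp6 was called in no tissue, Aqp4 in 4 and Aqp8 in 3.

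**Figure D3:**
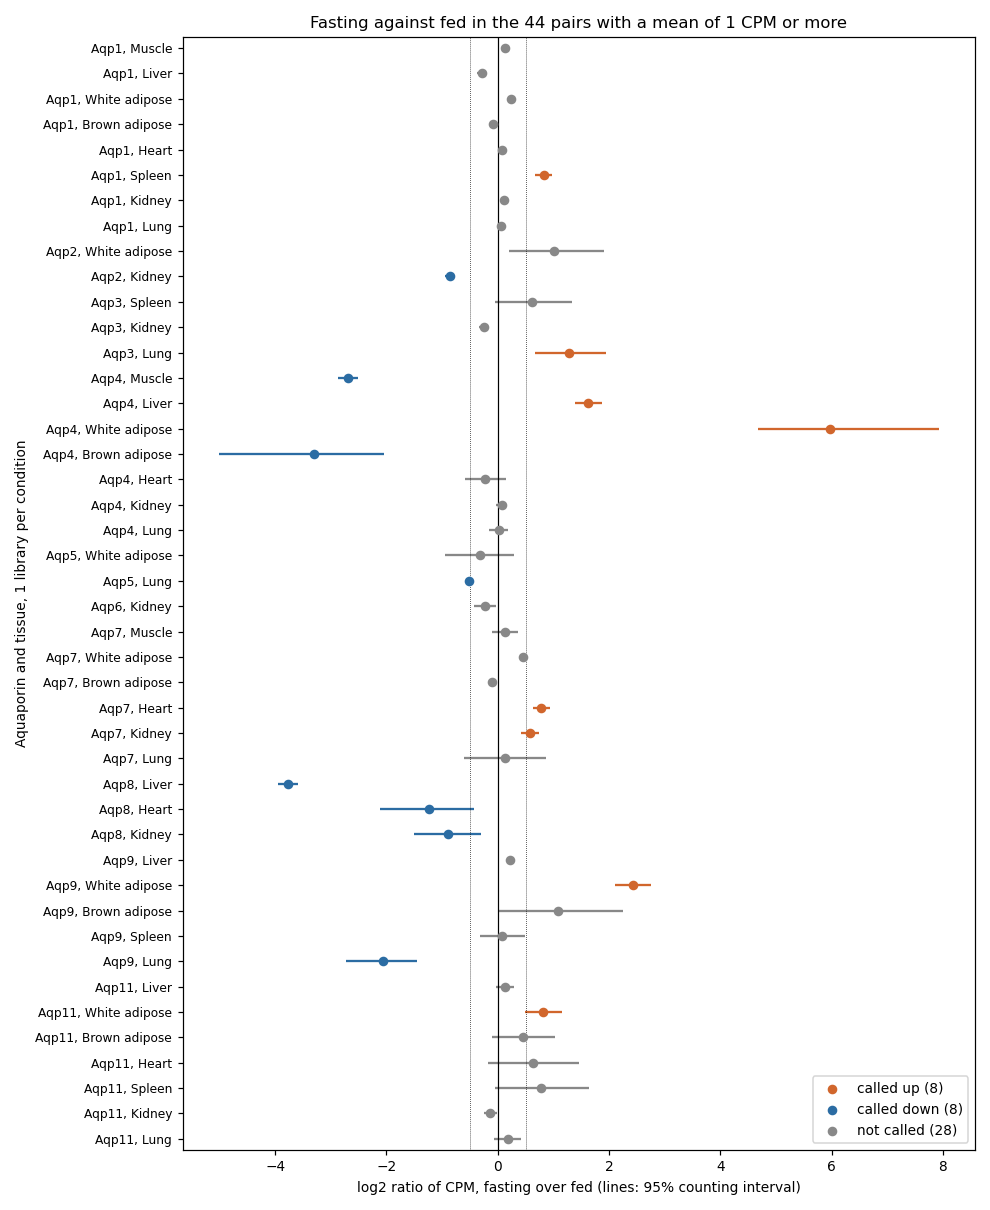
Log2 ratio of CPM, fasting over fed, for the 44 pairs with a mean of at least 1 CPM, with horizontal lines for 95% counting intervals, dotted lines at the call limit of 0.5 in size, and colours for called up, called down and not called. The intervals hold counting error of 1 library per condition and no variation between mice. The widest rise is that of Aqp4 in white adipose tissue (5.97), the widest fall that of Aqp8 in liver (-3.77), and all 3 Aqp8 pairs lie to the left.

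By tissue, 2 members were called up and 1 down in liver, where 4.46% of all genes with a count were called up and 9.52% down. White adipose tissue had 3 up and 0 down (13.2% and 5.84% of all genes), muscle 0 and 1 (4.42% and 9.39%), brown adipose tissue 0 and 1 (5.39% and 7.58%) and heart 1 and 1 (4.33% and 5.8%). Spleen had 1 up and 0 down (2.31% and 1.62%), kidney 1 and 2 (2.77% and 3.93%) and lung 1 and 2 (2.68% and 6.49%). The 7 white adipose members with a mean of at least 1 CPM had a median log2 fold change of 0.82, against 0.06 for all such genes in that tissue. Of these, Aqp4 (0.172 and 11.4 CPM) and Aqp2 (0.773 and 1.57 CPM) reached that mean only through the fasting library, which raises the median. Multiciliated genes, given above, rose in these libraries, and their part was not tested. In the other tissues the median of the members ran from -0.18 in kidney to 0.70 in spleen, and that of all genes from -0.14 in muscle to -0.02 in spleen. Leaving out any 1 of the 8 tissues left between 14 and 16 calls. Without the 6 tissues in which a foreign marker list moved, 4 calls were left, 1 up and 3 down, in muscle and kidney. These tissues were not free of moving lists: 5 of 8 adipocyte genes were called down in muscle and 5 of 8 hepatocyte genes in kidney, none up in either. The calls rest on counting error alone, and with a CV of 0.2 assumed between libraries those of Aqp1 in spleen, Aqp2 in kidney, Aqp3 and Aqp5 in lung, Aqp7 and Aqp8 in heart and kidney and Aqp11 in white adipose tissue were lost. The edgeR fit of all libraries had a common CV of 0.219.

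Aqp8, which passes water, ammonia and hydrogen peroxide, was lower in the fasting library in all 3 tissues where its mean reached 1 CPM. In liver it had 3475 counts (151 CPM) in the fed library and 276 counts (11.1 CPM) in the fasting one, 13.6-fold lower in fasting (95% counting interval 12.1 to 15.5). In heart it went from 2.79 to 1.18 CPM on 48 and 18 counts (log2 fold change -1.23, interval -2.11 to -0.43) and in kidney from 2.81 to 1.51 CPM on 63 and 39 counts (log2 fold change -0.89, interval -1.51 to -0.29). The fed library was the higher one in all 3. The kidney call was lost when p was adjusted over all genes (adjusted p = 0.0158 by Fisher's exact test). The kidney and heart calls were also lost with the assumed CV. Hepatocyte genes summed to 103300 CPM in the fed liver and 99510 CPM in the fasting one over 8 genes, with 3 higher in fasting, 2 called up and 2 down. Pancreatic acinar genes summed to 124 and 273.9 CPM in the same libraries, with 10 of 12 called up. Aqp9 and Aqp11 had log2 fold changes of 0.22 and 0.13 in the same liver libraries, and neither was called. In heart, hepatocyte genes went from 25.3 to 91.7 CPM with 8 of 8 called up, and cardiomyocyte genes summed to 50580 and 46060 CPM. Fast muscle fibre genes rose in the heart libraries too, from 247 to 388 CPM with 5 of 7 called up. The part of these lists in the results was not tested.

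Aqp4, known as the channel of astrocyte endfeet, of the sarcolemma of fast muscle fibres and of the kidney collecting duct, moved in opposite directions in different tissues. In muscle it had 1502 counts (62.4 CPM) in the fed library and 298 counts (9.63 CPM) in the fasting one, 6.48-fold lower in fasting (interval 5.72 to 7.36). The fast fibre genes of the same libraries summed to 116300 and 119800 CPM over 7 genes, with none called. Other lists fell in these libraries, adipocyte genes with 5 of 8 called down (216 to 186 CPM) and alveolar type 1 genes with 3 of 7 (11.2 to 5.62 CPM), and their part was not tested. In brown adipose tissue Aqp4 fell from 3.55 to 0.351 CPM on 59 and 5 counts (10.1-fold lower, interval 4.10 to 32.3). There, fast fibre genes fell too, from 2255 to 1092 CPM in sum with 7 of 7 called down, and their part in the result was not tested.

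In white adipose tissue Aqp4 went the other way, from 4 counts (0.172 CPM) in the fed to 312 counts (11.4 CPM) in the fasting library, a 66.2-fold higher level (interval 25.6 to 245). The genes of multiciliated cells listed for these libraries after the values were seen rose by similar amounts. Foxj1, the master regulator of motile cilia, went from 1.76 to 125.7 CPM, Dnah5, an axonemal dynein, from 3.26 to 195 CPM, and Rsph4a, a radial spoke protein, from 0.601 to 36.3 CPM, while Tekt2 was at 1.42 and 2.08 CPM and was not called. The epithelial gene Epcam went from 1.16 to 59.7 CPM and the endocytic receptor Lrp2 from 34.95 to 709.6 CPM. Adipocyte genes summed to 22800 and 20100 CPM, and fast fibre genes to 195 and 162 CPM. Epididymis genes were lower in fasting, at 11.4 and 1.35 CPM in sum with 5 of 8 called down. The part of these cells in the rise of Aqp4 was not tested.

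In liver, Aqp4 rose from 183 counts (7.95 CPM) to 610 counts (24.4 CPM), 3.08-fold (interval 2.60 to 3.65). Bile duct genes, also listed after the values were seen, summed to 47.3 CPM in the fed liver and 33.2 CPM in the fasting one, with none called up and 1 of 7 called down. Pancreatic acinar genes, given above, rose in these libraries, and their part was not tested. In kidney, lung and heart the fed and fasting levels of Aqp4 were close, with log2 fold changes of 0.07 (interval -0.03 to 0.16), 0.01 (interval -0.15 to 0.18) and -0.22 (interval -0.60 to 0.14). A gene that overlaps Aqp4 on the opposite strand had 23 counts in all 16 libraries.

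Aqp2 in kidney had 3308 counts (147 CPM) in the fed library and 2085 counts (80.9 CPM) in the fasting one, 1.82-fold lower in fasting (interval 1.72 to 1.93), a call lost with the assumed CV. The markers of the principal cells that carry it were called in neither direction: their sum over 6 genes was 198 CPM in the fed kidney and 176 CPM in the fasting one, among them Hsd11b2, the glucocorticoid-inactivating enzyme, at 57.2 and 47.9 CPM and the sodium channel subunit Scnn1b at 45.4 and 48.2 CPM. Aqp8 and Aqp7 were the other members called in kidney, with log2 fold changes of -0.89 and 0.58. Aqp3 and Aqp6 had log2 fold changes of -0.24 (interval -0.34 to -0.15) and -0.22 (interval -0.43 to -0.02), neither large enough to be called, Aqp11 of -0.13, and Aqp1 of 0.12. Genes of intercalated cells, the site of Aqp6, summed to 342 and 287.6 CPM over 6 genes, with 2 called down and none up, and their part was not tested.

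Of the fixed list of 24 genes of water and salt handling, 2 were called up and 2 down in the kidney (2.77% up and 3.93% down over all genes with a count). All 24 had a mean of at least 1 CPM, where a call is easier. Over all tissues, 17.5% of pairs at that mean were called, against 11.1% of pairs with a count. Sgk1, a kinase that activates sodium transport, rose from 55.96 to 198 CPM, and Slc5a3, the inositol transporter, from 493 to 859 CPM. Avpr1a, a vasopressin receptor, fell from 12.03 to 6.71 CPM, and Slc14a2, the urea transporter of the inner medulla, from 106 to 74.7 CPM (log2 fold change -0.51), a call lost under TMM and DESeq2 scaling. Avpr2, the vasopressin receptor upstream of Aqp2, was at 19.7 and 15.6 CPM and was not called. The list had a median log2 fold change of 0.10, against -0.06 for all kidney genes at 1 CPM or more.

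Aqp1 was called in spleen alone, where it had 520 counts (23.0 CPM) in the fed library and 1131 counts (40.6 CPM) in the fasting one, 1.77-fold higher (interval 1.59 to 1.97), a call lost with the assumed CV. Erythroid genes of the same libraries, which mark red cells and their precursors, summed to 3876 and 9428 CPM, with 10 of 10 called up, and endothelial genes to 625 and 702 CPM, with none called. The part of these cells was not tested. Pancreatic acinar genes went from 642 to 12.1 CPM in these libraries. In the other 7 tissues the log2 fold change of Aqp1 lay between -0.28 in liver and 0.24 in white adipose tissue.

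Aqp5 in lung fell just past the limit of a call, from 6542 counts (218 CPM) to 5454 counts (151 CPM), a log2 fold change of -0.53 (interval -0.58 to -0.47). With TMM or DESeq2 scaling it was -0.45 and was not called. Genes of alveolar type 1 cells summed to 3873 and 3947 CPM over 7 genes, with 1 called up and none down. Cardiomyocyte genes in the same libraries fell from 1094 to 556 CPM, with 6 of 6 called down. Aqp3, known from basal cells of the airway, rose in lung from 30 counts (0.998 CPM) to 88 counts (2.44 CPM), 2.44-fold (interval 1.60 to 3.83), and genes of basal epithelium summed to 20.4 and 21.1 CPM with 1 of 6 called in each direction. In liver, Aqp3 had 0 counts in the fed library and 12 counts (0.481 CPM) in the fasting one. With 3 counts set as the floor of the fed library it was at least 3.69-fold higher, leaving out the counting error of the fasting counts. The lower limit of its log2 counting interval was 1.36. The rise of pancreatic acinar genes in these libraries, given above, stands beside that of Aqp3, and the part of these genes was not tested.

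The glycerol channels of the energy-storing tissues moved as follows. Aqp7 was 1.72-fold higher in fasting heart (35.0 and 60.4 CPM, interval 1.55 to 1.91) and 1.496-fold higher in fasting kidney (23.5 and 35.2 CPM, interval 1.34 to 1.67), and both calls were lost with the assumed CV. In white adipose tissue, where it was far more abundant, it went from 4192 counts (180 CPM) to 6799 counts (248 CPM), a log2 fold change of 0.46 (interval 0.41 to 0.52), just under the limit of a call, and in brown adipose tissue it was at -0.11 (interval -0.17 to -0.04). In heart, adipocyte genes summed to 385.5 and 858 CPM, most of it the fatty acid binding protein Fabp4 at 370 and 831 CPM, whereas the adipocyte hormone Adipoq was at 0.871 and 0.262 CPM and 2 of the 7 list genes with a count were higher in fasting. Hepatocyte and fast muscle fibre genes, given above, rose in the heart libraries too. In kidney, adipocyte genes summed to 94.7 and 141 CPM, with Fabp4 at 46.1 and 80.0 CPM, Adipoq at 7.44 and 8.26 CPM and the lipid droplet protein Plin1 at 5.70 and 3.61 CPM. Their part in the results was not tested.

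Aqp9 in its main tissue, liver, went from 442 to 517 CPM (log2 fold change 0.22, interval 0.19 to 0.26) and was not called. In white adipose tissue it rose from 92 counts (3.95 CPM) to 583 counts (21.3 CPM), 5.38-fold (interval 4.31 to 6.78). Hepatocyte genes in these libraries summed to 127 and 122 CPM and neutrophil genes to 5.45 and 5.58 CPM, while the multiciliated and epithelial genes given above rose, and their part was not tested. In lung Aqp9 fell from 98 counts (3.26 CPM) to 28 counts (0.776 CPM), 4.20-fold (interval 2.74 to 6.64). Neutrophils are a known source of Aqp9, and their list was mixed in lung: 5 of 10 genes were called down, among them the receptor Csf3r, and 3 up, among them the granule protein Ltf, which went from 37.2 to 132 CPM. Cardiomyocyte genes, given above, fell in the same libraries. Hepatocyte genes there summed to 20.4 and 17.0 CPM, with 4 of 8 called down, 1 called up and Alb at 7.62 and 1.16 CPM. The part of these lists was not tested. A pair of genes overlapping Aqp9 on the opposite strand had 136 counts in all 16 libraries.

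Aqp11, an endoplasmic reticulum channel, was called in white adipose tissue alone, at 116 counts (4.98 CPM) in the fed library and 241 counts (8.79 CPM) in the fasting one, 1.76-fold higher (interval 1.41 to 2.22). Its log2 fold change was positive in 7 of 8 tissues, from 0.13 in liver (interval -0.03 to 0.28) to 0.82 in white adipose tissue. Outside white adipose tissue, the counting intervals of these positive values all included 0. Muscle, heart and spleen had at most 40 counts in a library. In kidney, where Aqp11 was most abundant, it was -0.13 (interval -0.25 to -0.01). The white adipose rise stood beside the multiciliated genes of the same libraries, and their part was not tested.

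**Figure D4:**
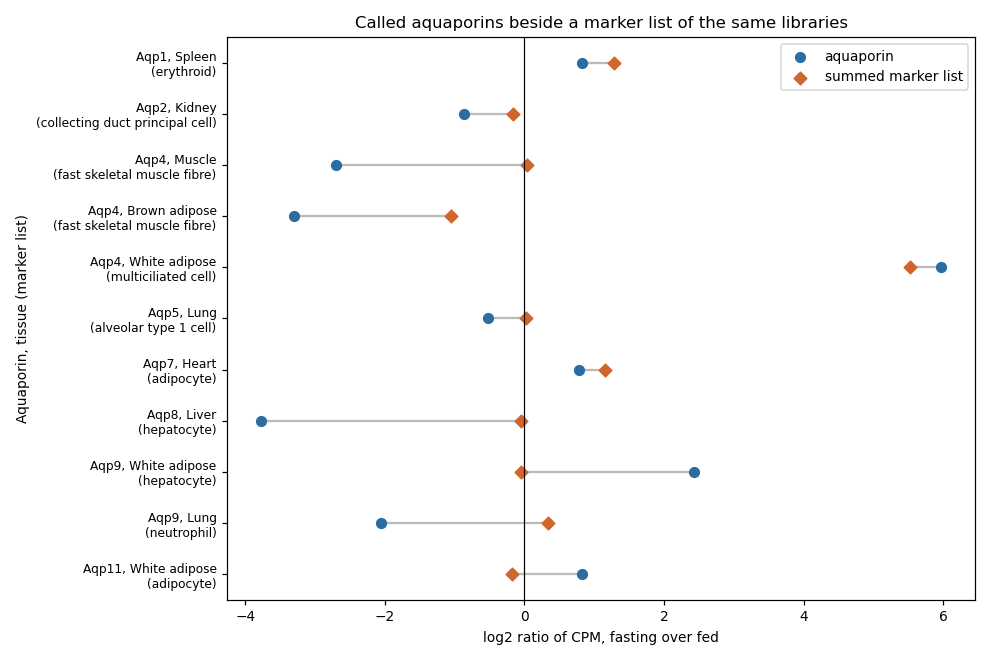
Log2 ratio of CPM, fasting over fed, of 11 called aquaporin and tissue pairs (circles) and of the summed CPM of a marker list in the same libraries (diamonds), joined by a line, with the list in parentheses. Lists were paired with members after the values were seen. Circle and diamond lie close for Aqp4 in white adipose tissue (5.97 and 5.52), Aqp1 in spleen (0.82 and 1.28) and Aqp7 in heart (0.79 and 1.15), although 2 of the 7 adipocyte genes with a count in heart were higher in fasting. They lie far apart in the other pairs with a log2 fold change of more than 1 in size: Aqp8 in liver (-3.77 and -0.05), Aqp4 in muscle (-2.69 and 0.04) and brown adipose tissue (-3.30 and -1.05), and Aqp9 in white adipose tissue (2.43 and -0.05) and lung (-2.06 and 0.33, where Ltf carries the rise of the neutrophil sum and 5 of 10 genes were called down). Aqp9 and Aqp11 in white adipose tissue are drawn beside lists other than the multiciliated one.

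The genes around the glycerol channels were followed with a fixed list of 20 genes of glycerol and triglyceride turnover. A mean of at least 1 CPM was reached by 20 of them in white adipose tissue, liver and kidney and by 19 in brown adipose tissue. The shares given beside them are over all genes with a count, where calls are rarer (11.1% of all pairs) than at that mean (17.5%). In white adipose tissue 5 were called up and 6 down (13.2% up and 5.84% down over all genes with a count), with a median log2 fold change of -0.16. Gk, the glycerol kinase that acts on the glycerol Aqp7 and Aqp9 carry, rose from 17.1 to 91.6 CPM, Pck1, the entry enzyme of glyceroneogenesis, from 1659 to 4019 CPM and Pnpla2, the first lipase of triglyceride breakdown, from 993 to 1623 CPM. The largest rise was that of Fbp1, a gluconeogenic phosphatase, from 2.23 to 25.96 CPM. Dgat2, which makes triglyceride, fell from 2114 to 167 CPM, the largest fall, and Gpd1, which makes glycerol 3-phosphate, from 625.5 to 223 CPM. The multiciliated and duct epithelial genes given above rose in the same libraries, and their part in these changes was not tested.

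In brown adipose tissue 4 genes of the list were called up and 2 down (5.39% up and 7.58% down over all genes with a count), with the largest rise in Pck1 (4050 to 8243 CPM) and the largest fall in Gpd1 (5286 to 2504 CPM). Fast fibre genes, given above, fell in these libraries, and their part was not tested. In liver 8 were called up and 2 down (4.46% up and 9.52% down), among them Gk from 135.5 to 278 CPM, Pck1 from 1066 to 4767 CPM and Gpat3, an acyltransferase with the largest rise, from 5.08 to 23.7 CPM. Pgp, a glycerol 3-phosphate phosphatase, fell most, from 14.9 to 9.25 CPM. The median of the list in liver was 0.36, against -0.13 for all genes. The part of the pancreatic acinar genes that rose in these libraries was not tested. In kidney 6 were called up and 2 down (2.77% up and 3.93% down), with the largest rise in Pck1 (1638 to 6942 CPM) and the largest fall in the lipoprotein lipase Lpl (685 to 400 CPM). In these libraries 5 of 8 hepatocyte genes were called down and 3 of 5 brown adipocyte genes up, and their part was not tested.

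The mean shift of a member over the tissues was tested with an edgeR quasi-likelihood fit of fasting against fed with tissue as a block. Whether the tissues shared a direction was not tested by it. The 8 tissues stand in for replicates in this fit, although only 2 pools of mice lie behind them. Its SEs and p-values therefore describe these pools and cannot speak for the conditions. The fit called 0 of 10 members at an adjusted p under 0.05, against 1.87% of all genes fitted. At an unadjusted p under 0.05 it gave 4 members (Aqp5, Aqp7, Aqp8 and Aqp11), against 18.6% of all genes, and the DESeq2 Wald test called 1, Aqp8. Aqp8 had a log2 fold change of -2.06 (SE 0.47, adjusted p = 0.0533 by edgeR), with the fasting library lower in all 5 tissues that had more than 3 counts in a library. Muscle is among them on 5 and 3 counts (log2 interval -3.79 to 1.26), and spleen on 4 and 0 counts, in the libraries whose acinar genes fell. The other 3 tissues had at most 3 counts and could not be told from 0. Without liver its log2 fold change was -1.15, and without white adipose tissue or kidney the adjusted p was 0.0401 and 0.0432, within a range of 0.00798 to 0.184 over the alternatives that gave one. Aqp11 had a log2 fold change of 0.39 (SE 0.11, adjusted p = 0.0964 by edgeR) and Aqp7 of 0.37 (SE 0.12, adjusted p = 0.128 by edgeR). For Aqp4 it was 0.19 with an SE of 0.68, and the sign turned to -0.27 without white adipose tissue.

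Finally, for each member the genes with the most similar profile over the 16 libraries were listed by Pearson correlation of log2(CPM + 1) among 14907 genes reaching 10 CPM. The 16 libraries are 8 pairs from the same tissues, so a high value mainly says that both genes share tissues. Aqp1 was closest to Cpd (r = 0.954), a membrane carboxypeptidase, and Emcn (r = 0.945), a sialomucin of endothelium. Aqp7 was close to Ginm1 (r = 0.946) and Fabp4 (r = 0.943), and Aqp5 to Tmem132d (r = 0.992) and Gprc5a (r = 0.992). Aqp8 was closest to Cyp26a1 (r = 0.953), the enzyme that degrades retinoic acid, and to Glo1 (r = 0.949), and Aqp11 to Abhd14b (r = 0.976) and Amt (r = 0.971), a subunit of the glycine cleavage system. Aqp2, Aqp3, Aqp6 and Aqp9 were closest to Phyhipl (r = 0.997), Slc23a3 (r = 0.988), 0610006L08Rik (r = 0.9996) and B630019A10Rik (r = 0.976). Aqp4 had the least similar neighbours, with Ssx2ip at r = 0.860.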

How the data were processed

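The deposited table held raw counts per gene for 16 libraries, with a gene length in bases. Per the labels and the study's methods, the authors used fastp 0.23.2 for trimming, FastQC 0.11.8 for quality, HISAT2 2.2.1.0 for alignment to GRCm38 and featureCounts (Subread 2.0) for counting on GENCODE vM24. The strand setting of the counting, and whether it counted reads or pairs, are not given in the sources used here. The other measurements of the study were not analysed here.

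Gene IDs were matched without their version to GENCODE vM21 and RefSeq tables of the same build, and 55144 of 55385 had a symbol. CPM were computed on library totals. Fold changes were taken as log2((CPM fasting + 0.01)/(CPM fed + 0.01)), tested per tissue with a two-sided Fisher's exact test over all genes. The rule of the study made a call, namely more than 0.5 on the log2 scale in either direction with p below 0.01, not adjusted. Counting intervals (95%, exact binomial for ratios, exact Poisson for CPM) hold no variation between mice and, without molecular identifiers, treat reads as independent. The fit across tissues used edgeR 4.0.16 in R 4.3.3 (TMM factors, filterByExpr, quasi-likelihood test, 23580 genes, 7 residual degrees of freedom, Benjamini-Hochberg adjustment over all genes), with DESeq2 1.42.0 as an alternative. Both tests were tried on simulated data first. Other alternatives were other scalings, pseudocounts and limits, an assumed CV of 0.2 or 0.4 with edgeR's exact test, and leaving out each tissue in turn. Named genes were the 10 members, the 3 genes most like each of them, Mip and Aqp12, the called gene with the largest rise and fall of each pathway list, and the leading genes of a marker list. Tekt2, Rsph4a, Epcam, Lrp2, Adipoq, Plin1, Csf3r, Kap, Avpr2, Gk, Pnpla2, Slc5a3 and Slc14a2, and further genes of those lists, were named after their values were seen. The members and gene lists were chosen with earlier results of these data known. The multiciliated and bile duct lists were added after the values were seen.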

Additional observations from a re-analysis of the deposited data

Results flagged for a closer look

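Aqp4 differed in direction between tissues under the same contrast, and the difference itself was not tested. With 1 library per condition, the log2 fold change of fasting against fed was 1.62 in liver and 5.97 in white adipose tissue, but -2.69 in muscle and -3.30 in brown adipose tissue. The multiciliated genes of the white adipose libraries and the fast fibre genes of the brown adipose libraries moved in the same direction as Aqp4 there, and their part was not tested. In muscle, 0 of 7 fast fibre genes were called, but 5 of 8 adipocyte and 3 of 7 alveolar type 1 genes were called down. In liver, 10 of 12 pancreatic acinar genes were called up. The part of these lists was not tested either.

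Aqp9 likewise was higher in fasting white adipose tissue (log2 fold change 2.43) and lower in fasting lung (-2.06), and this difference was not tested either.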

How the results depend on the processing

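The 17 calls rest on counting error. When a CV of 0.2 between libraries was assumed in the exact test of edgeR, 8 calls were left (4 up, 4 down), and with a CV of 0.4 there were 6 (3 up, 3 down): Aqp3 and Aqp8 in liver, Aqp4 in muscle and in both adipose tissues, and Aqp9 in white adipose tissue. A log2 limit of 1 gave 10 (5 up, 5 down). A filter at a mean of 1 CPM kept 16 and lost Aqp3 in liver, which rests on 0 and 12 counts. TMM and DESeq2 scaling lost Aqp5 in lung, and adjusting p over all genes lost Aqp8 in kidney. These scalings shift the log2 ratio of a well-counted gene by -0.12 in white adipose tissue to 0.12 in liver. They move genes near 0 counts further, since the pseudocount then weighs differently: Aqp3 in liver went from 5.62 to 6.30 (TMM) and 6.29 (DESeq2). With a pseudocount of 1 CPM in place of 0.01 all 17 calls were kept, but Aqp3 in liver shrank to 0.57, and Aqp4 in white and brown adipose tissue to 3.40 and -1.75. Aqp9 and Aqp3 in lung shrank to -1.26 and 0.78, and Aqp8 in heart to -0.80. As alternatives chosen after seeing the data, leaving out 1 tissue gave 14 to 16 calls (6 to 9 up, 6 to 8 down), and leaving out the 6 tissues with a foreign marker list called in 1 direction gave 4 (1 up, 3 down).

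Between tissues scaling weighs more, as TMM factors ran from 0.534 to 1.51. On TMM or DESeq2 sizes, tried for the order of tissues after seeing the data, all 10 members had the same highest tissue. The share in that tissue moved for Aqp4 from 45.9% to 37.3% (TMM) and 35.9% (DESeq2) and for Aqp11 from 48.95% to 42.8% and 42.0%, and Aqp11 in kidney then overlapped liver. In the fasting libraries alone, liver held 79.2% of Aqp8 against 94.7%. The highest tissue of Aqp7 was white adipose tissue (41.9%) in the fasting libraries alone. The shares of the remaining members moved less.

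Across tissues, 0 members were called in the fit as reported and 1, Aqp8, without a filter, by the DESeq2 Wald test, without white adipose tissue or without kidney, so that leaving out 1 tissue gave 0 to 1. Estimates of 3 members changed sign. For Aqp2 the log2 fold change was 0.00814 without a filter, 0.01 without brown adipose tissue, 0.56 without kidney and 0.14 by DESeq2, and leaving out 1 tissue gave -0.41 to 0.56. For Aqp4 it was -0.43 without the tissue block, -0.12 without liver and -0.27 without white adipose tissue, and leaving out 1 tissue gave -0.27 to 0.64. For Aqp9 it was -0.0444 without white adipose tissue, with a range up to 0.86 without lung. The glycerol list in liver and the water and salt list in kidney had 1 gene called down rather than 2 under TMM and under DESeq2 scaling. The cause was not tested. The fit across tissues pairs fed with fasting within a tissue, and only 2 pools of mice lie behind all its pairs. Members at or below 3 counts in a library could not be told from 0.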

Other observations

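The family has 2 further genes in the table. Mip, the lens channel, had 6 counts in all, in 4 libraries and at most 2 in any. Aqp12, a pancreatic acinar member, had 9 counts, of which 7 were in the fed spleen library, the library whose acinar genes summed to 642 CPM. In the same spleen pair Aqp8 had 4 counts with feeding and 0 with fasting.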
